A study of Homo sapiens with 30 samples.

Results

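The comparison set D3 against D2 in H7 cells on their way to cardiomyocytes, a step at which most genes of the primitive streak stood lower and some genes of cardiac mesoderm higher. H7 is an established human embryonic stem cell line. MYL4, an atrial myosin light chain, stood at 2.66 at D2 and 80.8 at D3, and ACTA2, smooth muscle alpha-actin, at 0.856 and 29.4, in FPKM (fragments of RNA counted per length of transcript and per size of the library). CYP26A1, the enzyme that breaks down retinoic acid, stood at 29.9 at D2 and 1.23 at D3. Genes were taken from the time-course table when they had at least 5 FPKM at D2 or D3, which left 11041 of 41495 entries, 10037 of them protein-coding. The difference in log2(FPKM + 1) was computed for each, and a difference of at least 1, that is 2-fold, was counted as higher or lower. A gene past 2-fold was set aside as returning when its D4 value differed from D2 by less than 0.5 of the log2 difference at D3 (597 entries), and 10444 entries remained. Of the 11041, 223 (2.02%) were higher and 527 (4.77%) lower at D3. Among protein-coding genes 182 (1.81%) were higher and 403 (4.02%) lower, with medians of 1.27 and -1.30 on the log2 scale.

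All D1 to D6 cells were unsorted derivatives of H7 on 1 schedule: 12 µM CHIR99021, a GSK3 inhibitor that switches on WNT signalling, for 24 hours, then 5 µM IWP4, which blocks the release of WNT ligands, for 2 days, in RPMI with B27 lacking insulin. The labels number the day of the CHIR99021 medium as D1 and do not give the hour of collection, so which medium the D2 and D3 cells were taken from is not stated. D2 and D3 have 2 libraries each (4 of the 30 in the series), D4 served to set genes aside and to show how far a difference lasted, and cells sorted at D3 on the receptor ROR2 gave a second readout. The table gives 1 value per gene and time point for the libraries together, so no spread, error or test can be had for the time course, and nothing in the labels tells whether these libraries were separate cultures. In unsorted cells, fewer cells of a type and less RNA per cell cannot be told apart.

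The primitive streak is the transient site in the embryo where epiblast cells, under NODAL and WNT signals, take up the transcription factors brachyury, EOMES and MIXL1; they lose their epithelial form and move out as mesoderm and endoderm. Cells that leave the streak early, with MESP1, form cardiac and other anterior or lateral mesoderm, patterned by BMP, while cells that stay under WNT and FGF form presomitic, paraxial mesoderm. Cardiac mesoderm then takes up HAND, GATA, ISL1 and other factors before any contractile tissue exists. In cardiac protocols such as the one used here, a pulse of WNT activation is followed by WNT inhibition to push cells along the cardiac route.

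Some features of the columns bear on every value below, and their part in the results was not tested. The D3 column was lower than both of its neighbours by 2-fold for 278 protein-coding genes and higher than both for 116, against 35 and 61 for the D2 column and 101 and 30 for the D4 column. Over 8139 genes present from hESC to D5, a median scaling of the columns moved D3 minus D2 by 0.11 log2 units, and the split of 223 higher to 527 lower (29.7% higher) became 297 to 378 (44.0% higher). The scaling multiplied D2 by 0.903, D3 by 0.977 and D4 by 1.13, so it moved D4 minus D2 by more than D3 minus D2. The D4 list medians below are unscaled, and so are the counts of genes as far from D2 at D4. The median level of all tested protein-coding genes was 19.3 FPKM at D2, 18.4 at D3 and 17.0 at D4. The median difference of all protein-coding genes was -0.08, with 5th and 95th percentiles of -1.21 and 0.82. Genes lower at D3 had shorter transcripts and more G and C (medians of 2550 bases and 52.7%) than genes under 2-fold (3834 bases and 47.1%), while genes higher at D3 had medians of 4482.5 bases and 47.0%. The 13 measured structural and mitochondrial RNAs and histone messages fixed as signs of RNA composition had a median of 0.41, with none past 2-fold. Near the 2-fold limit lay 202 protein-coding genes within 0.05 log2 units: PALLD (12.1 at D2, 25.3 at D3) was counted as higher and LEF1 (32.6 and 66.1) was not.

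**Figure D1:**
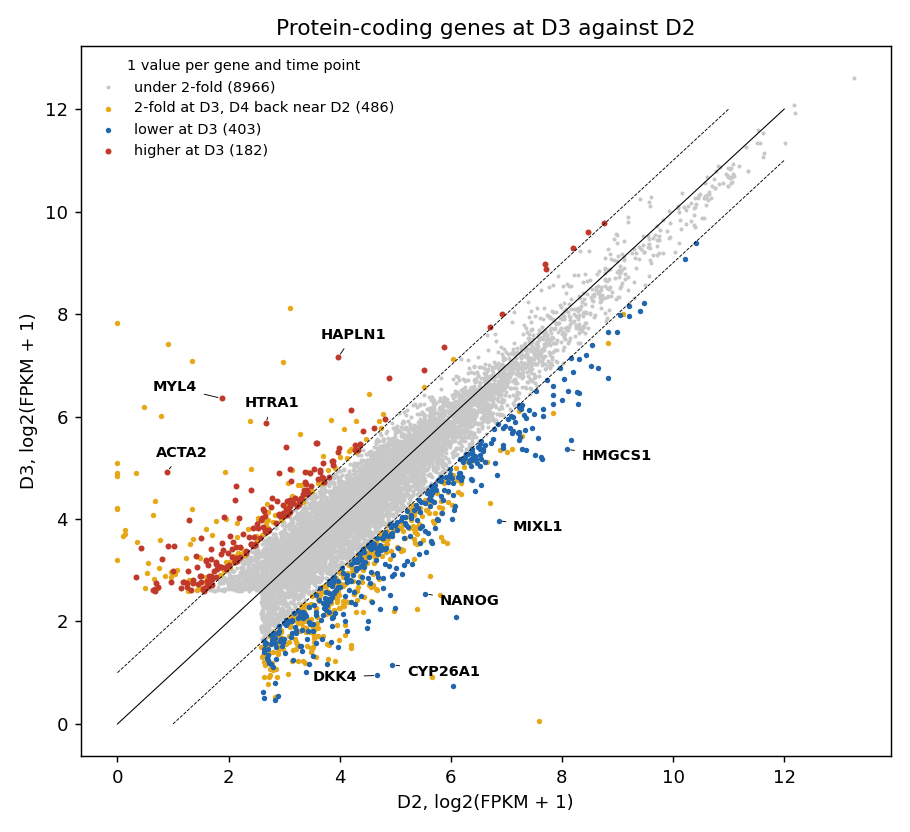
Level of each protein-coding gene at D2 (x axis) and D3 (y axis), both in log2(FPKM + 1), 1 point per gene; dashed lines mark a 2-fold difference. The 182 genes higher at D3 include MYL4 and ACTA2 far above the diagonal, the 403 lower genes include CYP26A1, DKK4 and NANOG far below it, and 486 genes past 2-fold whose D4 value came back near D2 were set aside.

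The largest increases were in genes of muscle, matrix and cell signalling. After MYL4 (difference 4.48) and ACTA2 (4.03) came HTRA1, a secreted serine protease that cuts matrix proteins, at 5.38 FPKM at D2, 57.3 at D3 and 56.7 at D4. HAPLN1, which links hyaluronan to proteoglycans, stood at 14.7, 142 and 132. NPNT, an integrin ligand of the basement membrane, stood at 0.342, 9.81 and 10.6. All of these held their D3 level at D4, and MYL4 and ACTA2 did too, at 71.0 and 38.2. Transcription factors and ligands were among the next 10: PRRX1, a homeobox factor of mesenchyme, stood at 0.256 and 6.33, and BMP5 at 0.88 and 10.1. MEIS1, a TALE homeobox factor, went from 4.26 at D2 through 22.7 at D3 to 112 at D4, and LIX1 from 7.17 through 41.2 to 83.7. HEY1, a target of NOTCH in the developing heart and vessels, stood at 2.76, 15.5 and 19.5. PCSK2 (1.43, 14.8 and 5.75), RND1 (3.38, 23.9 and 15.4) and CALCRL (0.734, 8.31 and 4.16), by contrast, were lower again at D4. The 15 were completed by ABCA1, a cholesterol exporter, at 1.03, 10.1 and 12.0, and by KIAA1462 at 3.34, 19.7 and 24.7. Of the 182, 94 were as far above D2 at D4 as at D3 or further, and 54 had their highest level in the cardiomyocytes of the last time point, against 35 at D3 itself.

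Streak, pluripotency and sterol genes were prominent among the largest decreases. CYP26A1 (29.9 and 1.23 FPKM, difference -3.79) was followed by DKK4, a WNT antagonist that WNT itself switches on, at 24.6 at D2, 0.927 at D3 and 0.129 at D4. NANOG, a pluripotency factor, stood at 45.5, 4.81 and 1.04, and MIXL1 at 115, 14.7 and 1.61. NODAL stood at 21.6, 2.65 and 3.35, after 201 at D1. All 5 stood far below D2 at D4 too, where NODAL had the highest value of them. LZTS1 (31 at D2 and 3.77 at D3), MESP2 (12.7 and 1.24), FOXJ1, a factor of ciliated cells (14.7 and 1.83), ANXA1 (25.4 and 3.76) and PRKCDBP (21.9 and 3.05) were lower by a similar factor. HMGCS1 and ACAT2 belong to the sterol pathway described below, and the histone gene HIST1H4L stood at 199 and 34.9. Of the 403 lower genes, 177 had their highest level at D1 and 109 at D2, and 45 were at least 2-fold higher at D2 than at D1.

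**Figure D2:**
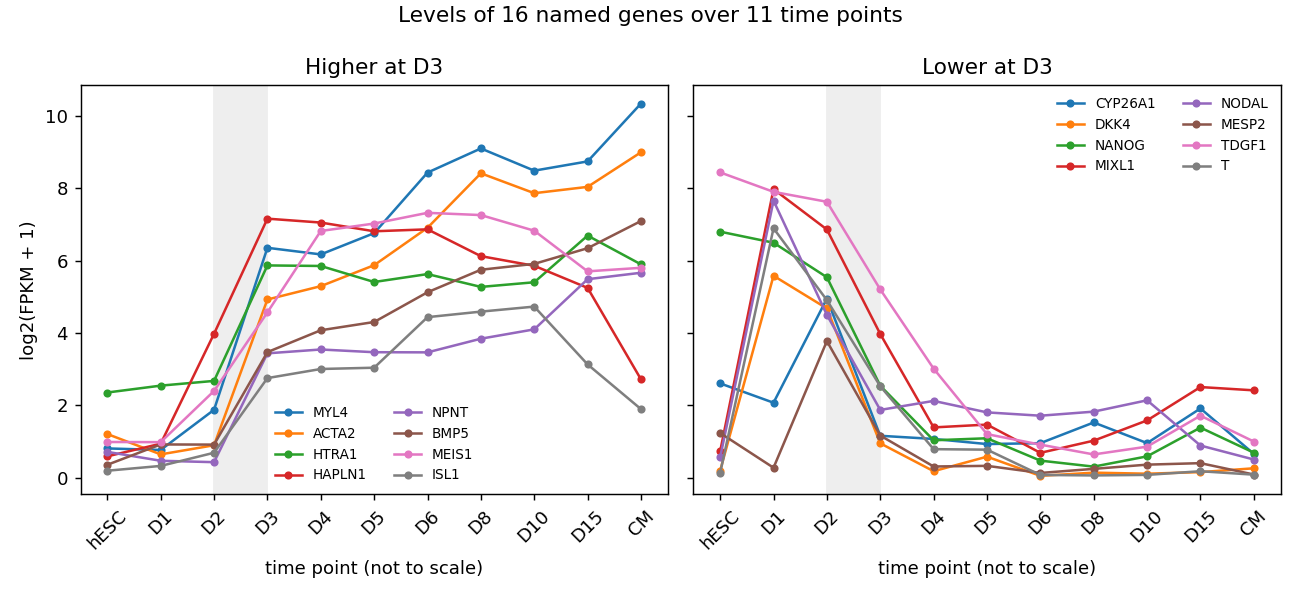
Levels in log2(FPKM + 1) of 8 genes higher (left) and 8 lower (right) at D3 over the 11 time points, spaced evenly and not to scale (CM, cardiomyocytes); the grey band runs from D2 to D3, and each point is the single value of a time point. MYL4 and ACTA2 step up between D2 and D3 and stay up, while DKK4, MIXL1, NODAL and T peak at D1, CYP26A1 and MESP2 peak sharply at D2 after a lower D1, and all of these are low from D4.

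Streak transcription factors stood lower at D3 as a group. Of 15 measured, 10 were lower, none was higher and 1 was set aside, with a median difference of -1.44 against -0.08 for all protein-coding genes; against D2, which both comparisons share, the D4 median was -2.34. T (brachyury), the founding T-box factor of the streak, stood at 118 FPKM at D1, 29 at D2, 4.76 at D3 and 0.722 at D4. EOMES, which opens the mesendoderm programme, stood at 47.0, 63.9, 15.1 and 4.40. MESP1, which marks the first cardiac precursors, stood at 0.733, 12.5, 3.70 and 0.748. The order of the peaks differed: T, MIXL1, EVX1 and CDX1 were highest at D1, whereas EOMES and MESP1 were highest at D2. CDX1 (10.4 and 1.52) and EVX1 (8.32 and 2.44), factors of the posterior streak, and FOXA2 (7.22 and 3.11), a factor of the anterior streak and endoderm, were all lower at D3. SP8 (5.13 and 4.67) was under 2-fold. LHX1, a factor of the anterior streak, stood at 10.6, 2.01 and 8.06 at D2, D3 and D4 and was set aside.

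The promoter of MIXL1 is shown because it alone, of the 6 lower streak factors with an entry in the RefSeq promoter table, held the binding motif of TCF/LEF, the DNA-binding partners of beta-catenin (CTTTGAT on either strand, searched from 250 bases before to 50 after the start). The 250 bases before the start lie at chr1:226223414-226223663 on the plus strand of GRCh38.p14, and the capitals mark the motif, which runs from 76 to 70 bases before the start.
MIXL1: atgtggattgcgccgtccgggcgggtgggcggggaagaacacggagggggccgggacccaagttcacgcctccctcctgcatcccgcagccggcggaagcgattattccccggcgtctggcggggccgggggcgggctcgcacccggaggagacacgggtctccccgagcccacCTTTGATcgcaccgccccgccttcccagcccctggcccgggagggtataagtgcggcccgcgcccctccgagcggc
The motif was in 4 of 306 promoters of lower protein-coding genes (1.31%), in 2 of 150 of higher genes (1.33%) and in 105 of 8369 of all protein-coding genes tested (1.25%), so the shares were alike; over all 27305 promoters of the table the share was 2.64%. The T-box motif AGGTGTGA was in 1 promoter of the lower genes (0.327%), in none of the higher genes and in 0.585% of those tested. A match of letters is no evidence of binding.

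Paraxial mesoderm genes were lower at D3 almost throughout: 8 of 9 measured were lower, with a median of -1.64. TBX6, the T-box factor that fixes the presomitic fate, stood at 9.94 FPKM at D2 and 1.25 at D3, and MSGN1, its partner in that tissue, at 6.39 and 0.452. The segmentation genes RIPPLY2 (7.86 and 2.44) and LFNG (18.6 and 6.98) and the NOTCH ligands DLL1 (7.12 and 1.61) and DLL3 (70.0 and 28.9) were lower as well. FOXC1, which is also made in other mesoderm, was the exception, at 5.90 and 3.14 with 6.34 at D4. TBX6, MESP2, RIPPLY2 and CYP26A1 had D1 values of at most 3.20, so that their high D2 value stood between lower neighbours on both sides. Of the 11 measured NOTCH genes, HEY1 was the only one higher, 3 were lower (DLL1, DLL3 and LFNG) and JAG1 was set aside.

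In the list of the NODAL pathway the lower genes were all extracellular members, while its receptors and SMADs were under 2-fold. Of 12 genes measured 5 were lower and none higher, with a median of -0.44. The co-receptor TDGF1 stood at 197 FPKM at D2, 35.8 at D3 and 7.06 at D4. The antagonist CER1 stood at 85.7, 22.4 and 1.28, and the activin-binding protein FST at 124, 55.4 and 19.1. The feedback inhibitor LEFTY1 stood at 6.17, 0.384 and 0.257. The receptors ACVR1B (7.95 and 7.85), ACVR2A (14.9 and 20.8) and ACVR2B (19.5 and 33.0) and the signal carriers SMAD2 (62.7 and 67.8) and SMAD4 (90.5 and 91.9) were under 2-fold, although no interval can be given for these differences.

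WNT ligands were lower in 3 of 6, and the direct targets of the pathway went apart. WNT3A, the streak ligand, stood at 13.4 FPKM at D2 and 2.04 at D3, WNT8A at 58.0 and 22.5, and WNT5B at 34.5 and 11.4. WNT5A, which signals through ROR2, stood at 33.7 and 31.7, and WLS, the carrier that WNT ligands need for release, at 79.1 and 84.7. Of 16 targets, 4 were lower (DKK4, CDX1, APCDD1 and MYC), 1 was higher (LGR5, a receptor for R-spondins, 7.16 and 17.4) and 1 was set aside, with a median of -0.19. AXIN2, the feedback inhibitor read as a general measure of the pathway, stood at 118 at D1, 25 at D2, 16 at D3 and 14.8 at D4, so that most of its decline came before D2. LEF1 (32.6, 66.1 and 72.5) and TNFRSF19 (7.71, 14.9 and 19.6) stood higher at D3 and SP5 (72.0, 35.7 and 9.32), a repressor close under WNT control, lower, each just under 2-fold. DKK1 (101, 89.5 and 20.6) held its level to D3, unlike its relative DKK4. SP5 is shown as the member of this list whose promoter held the same TCF/LEF motif, 1 of 7 with an entry; the 250 bases before the start lie at chr2:170715087-170715336, plus strand, GRCh38.p14, with the motif in capitals from 109 to 103 bases before the start.
SP5: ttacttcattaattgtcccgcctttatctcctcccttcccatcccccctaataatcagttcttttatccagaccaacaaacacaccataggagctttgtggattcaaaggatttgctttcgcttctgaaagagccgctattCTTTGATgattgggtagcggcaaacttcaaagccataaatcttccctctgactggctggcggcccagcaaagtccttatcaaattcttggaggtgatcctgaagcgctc
The WNT antagonists fixed as a list were lower in 3 of 8 (DKK4, CER1 and APCDD1), with a median of -0.49; SFRP1 stood at 37.6 and 36.2.

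FGF signalling was lower in 5 of 17 genes: the streak ligands FGF4 (10.9 and 1.97 FPKM) and FGF17 (11.8 and 2.17) and the downstream genes ETV4 (43.5 and 13.5), SPRY4 (50.9 and 19.3) and IL17RD (57.1 and 19.6). FGF10, a ligand of the second heart field, was higher, at 3.54 and 15.3. The receptors FGFR1 (165 and 148) to FGFR4 were all under 2-fold, and DUSP6, the ERK phosphatase, was set aside (78.4, 33.6 and 78.1 at D2, D3 and D4). In the retinoid list CYP26A1 stood against RDH10, which makes the precursor of retinoic acid and was higher (7.59 and 19.7). STRA6, the retinol importer, was set aside (20.3, 3.56 and 18.6).

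Pluripotency genes were lower in 6 of 16 and higher in none, with a median of -0.69 at D3 and -2.03 at D4. POU5F1 (OCT4) stood at 588 FPKM at D2, 285 at D3 and 52.5 at D4, a later course than that of NANOG. SOX2 stood at 49.6, 51.5 and 19.8, and LIN28B at 49.4, 54.9 and 39.0, so that both were at their D2 level at D3. OTX2, a factor of the epiblast and the anterior head, stood at 33.8, 6.60 and 7.06 after 5.24 at D1. Endoderm genes were present at low levels and 2 of 9 were lower, CER1 and FOXA2; SOX17, which defines definitive endoderm, stood at 10.8 and 6.45. Of the neural list 4 of 15 reached 5 FPKM: NES (108 and 46.5) and OTX2 were lower and TFAP2A (1.67 and 8.66), also a factor of surface ectoderm and neural crest, was higher. Of the endothelial and blood list 4 of 21 reached it, with GATA2 higher (1.95 and 5.00).

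**Figure D3:**
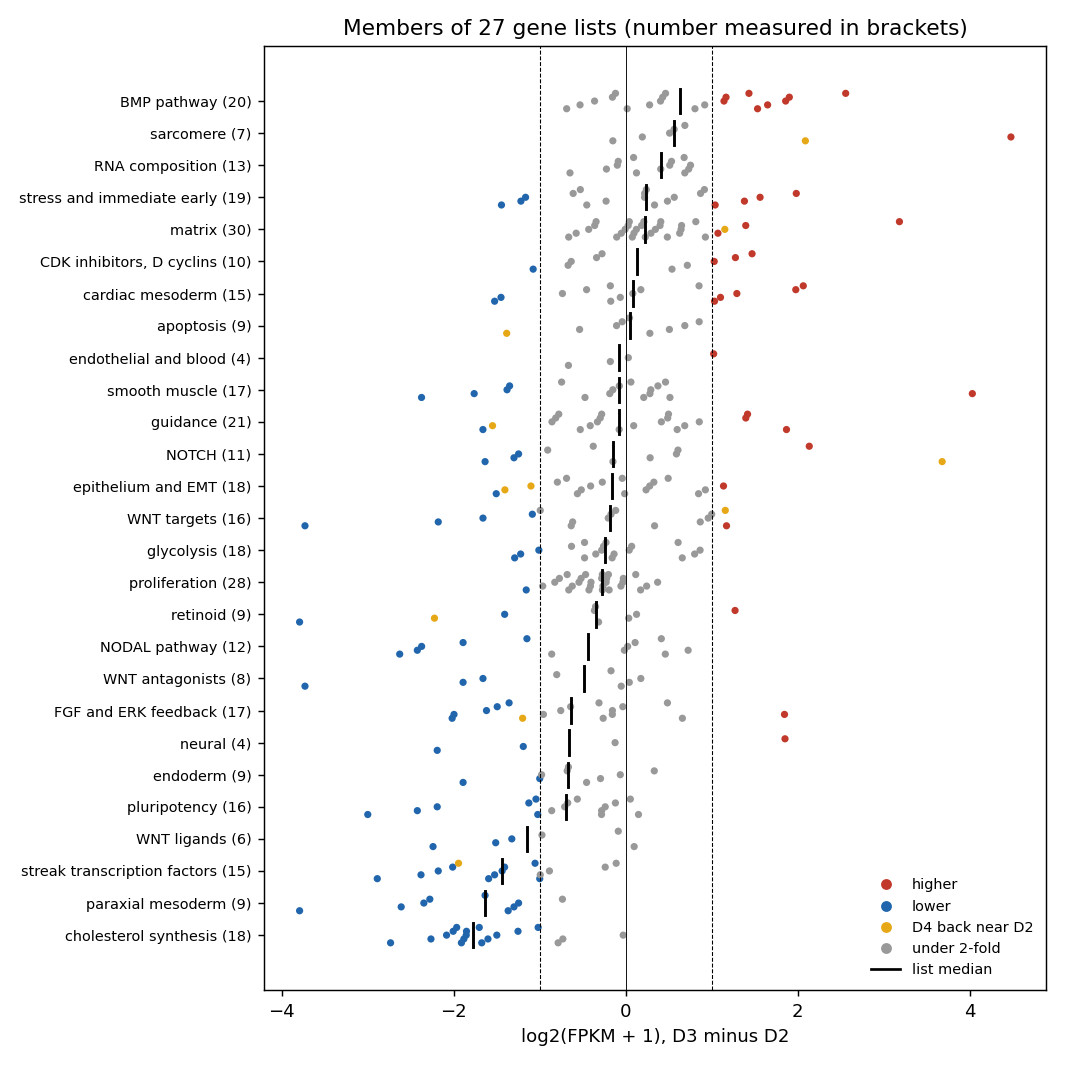
Difference in log2(FPKM + 1) at D3 minus D2 (x axis) of each measured member of 27 gene lists (rows, number measured in brackets), with the list median as a black bar and 2-fold as dashed lines. Cholesterol synthesis, paraxial mesoderm and streak factors have the lowest medians (-1.78, -1.64 and -1.44) and the BMP pathway the highest (0.63).

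BMP genes were the list with most members higher: 8 of 20 were higher and none lower, with a median of 0.63 at D3 and 0.52 at D4. The ligands BMP4 (18.4 FPKM at D2, 42.5 at D3) and BMP5 were higher, while BMP2 (19.6 and 13.2) and BMP7 (5.38 and 2.96) were under 2-fold. Secreted regulators were higher with them: BMPER stood at 11.0, 43.9 and 59.6 at D2, D3 and D4, and the antagonist GREM1 at 2.67, 10.5 and 22.6. Inside the cell, the inhibitory SMAD6 (10.7 and 30.5) and SMAD7 (11.8 and 27.3), both feedback genes of the pathway, and the target genes ID4 (28.6 and 107) and MSX2 (9.39 and 29.1) were higher. ID1 (205 and 276), ID2 (111 and 194) and ID3 (338 and 311), the more general targets, were under 2-fold, as were the receptor BMPR1A (73.8 and 74.7) and SMAD1 (13.8 and 10.5). No member of the list went down by 2-fold at D3, and 5 of the 8 were at D4 as high as at D3 or higher.

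Cardiac mesoderm genes were divided. Of 15 measured, 5 were higher (ISL1, MYOCD, HAND1, PDGFRA and TBX3) and 2 lower (MESP1 and APLNR), with a median of 0.08 at D3 and 0.87 at D4. HAND1, a factor of lateral mesoderm, stood at 0.174 FPKM at D1, 9.47 at D2, 24.6 at D3 and 45.1 at D4. PDGFRA, the receptor used to sort cardiac mesoderm at D4, stood at 1.55, 19.5, 43 and 141. ISL1, a factor of the second heart field, stood at 0.249, 0.608, 5.73 and 7.01, and MYOCD, the coactivator of smooth and cardiac muscle genes, at 0.533, 0.560, 5.15 and 13.7. HAND1 and PDGFRA thus passed 5 FPKM at D2, and ISL1 and MYOCD only at D3. GATA4 (7.39, 7.03 and 12.7 at D2, D3 and D4) and GATA6 (13.4, 9.47 and 25.3) were not higher at D3. APLNR, the apelin receptor of migrating mesoderm, stood at 6.70, 180, 65.2 and 44.6, and ROR2 at 9.66, 32.9, 29 and 38.2.

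Of 24 sarcomere genes only 7 reached 5 FPKM, with 6 of the 7 above 0 and a median of 0.56. MYL4 alone was counted as higher, and ACTC1, past 2-fold at D3, was set aside (13.4, 60.1 and 22.9 at D2, D3 and D4). MYL7, the other atrial light chain, stood at 25.4, 38.1 and 76.1, TNNC1 at 20.7, 23.8 and 14.3, and TPM1 at 231, 208 and 422. The smooth muscle list had 17 members measured, of which ACTA2 alone was higher and 4 were lower, with a median of -0.07 that turns to 0.04 under the scaled columns. TAGLN, the usual companion of ACTA2, stood at 508 at D2 and 199 at D3, CALD1 at 92.7 and 35.0, DES at 9.47 and 1.02, and CSRP1 at 8.79 and 1.88. MYL9 (40.1 and 49.3) and TPM2 (159 and 219) were under 2-fold. The ACTA2 locus of the sort table, chr10:90639491-90775542 in hg19, reaches over the neighbouring gene FAS, and the strand setting of the counting is not given in the sources used here.

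Matrix genes were mostly under 2-fold, with 3 of 30 higher and none lower (median 0.22). Besides HAPLN1 these were COL4A6 (11.9 and 33.1 FPKM) and NID2 (6.23 and 14.2, then 78.0 at D4), both of the basement membrane. COL1A1 stood at 6.05, 6.19 and 53.5 at D2, D3 and D4 and was higher only at D4. Fibronectin, FN1, stood at 100, 191 and 259, just short of 2-fold at D3. Guidance genes were higher in 3 of 21: the semaphorin receptors NRP1 (7.60 and 30.4) and NRP2 (14.9 and 40.8) and the ligand SEMA3C (5.28 and 15.8). EPHA1 was lower (30.0 and 8.80), and the list's median of -0.08 turns to 0.03 under the scaled columns. In the list of epithelium and its loss, VIM, the mesenchymal filament protein, was higher (352 and 775) and CLDN6, a tight junction protein, lower (200 and 69.9). CDH1, epithelial cadherin, stood at 69.6 at D1, 23.9 at D2, 14.5 at D3 and 8.34 at D4, and CDH2, neural cadherin, at 53.9, 85.9, 85.2 and 46.3. From D1 to D3, most of the switch between these cadherins thus lay before D2, while both stood lower again at D4. SNAI1 (15.6 and 8.58) and SNAI2 (13.3 and 9.78), the repressors that drive that switch, were under 2-fold, and KRT8 and KRT18 were set aside.

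Cholesterol synthesis had the lowest median of the 28 lists. Of 18 genes measured 15 were lower, none was higher and all 18 had a difference below 0, with a median of -1.78 at D3 and -1.57 at D4; under the scaled columns SREBF1 turned from -0.03 to 0.08. At the head of the pathway HMGCS1 stood at 446 FPKM at D1, 272 at D2, 40.0 at D3 and 81.4 at D4. Squalene is made and closed by FDFT1 (316 at D2 and 86.8 at D3), SQLE (160 and 52.2) and LSS (110 and 33.2). The late steps CYP51A1 (182 and 37.0), MSMO1 (162 and 39.4) and DHCR7 (92.8 and 24.4) were lower by as much. INSIG1 (42.6 and 10.6), a target of the sterol-sensing factor SREBP2, was lower too, whereas the SREBP genes SREBF2 (52.6 and 31.3) and SREBF1 (22.4 and 21.9) were under 2-fold. All 15 stood below their D1 level at D2 already, and 7 of them were at D4 as low as at D3 or lower. ACAT2 (287 and 45.7), NSDHL (48.8 and 10.8) and MMAB (42 and 8.97), which were not on the list and were chosen after their values were seen, were lower as well, while the exporter ABCA1 was higher. The sterol regulatory element TCACNCCAC, searched after the values were seen, was in none of the 10 promoters of lower list members that the RefSeq table holds, and in 1.18% of those of all protein-coding genes tested.

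**Figure D4:**
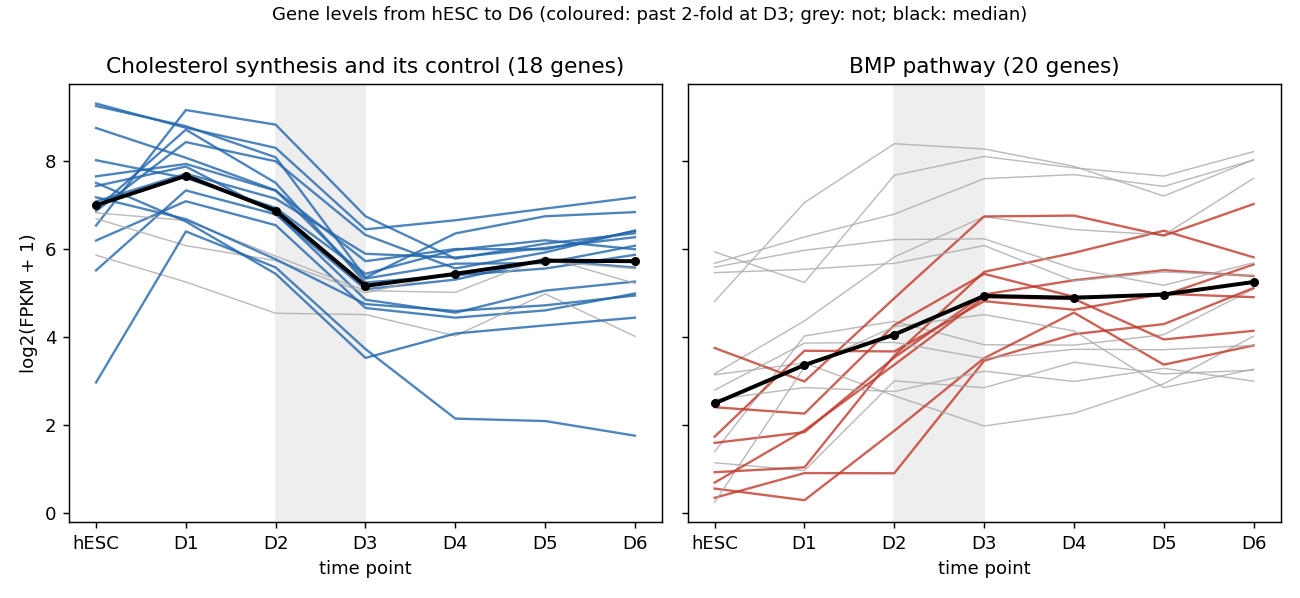
Levels in log2(FPKM + 1) from hESC to D6 of 18 genes of cholesterol synthesis and its control (left) and 20 BMP pathway genes (right), 1 line per gene, with the median in black and the step from D2 to D3 in grey. The 15 coloured genes on the left are all lower at D3, 7 of them as low or lower at D4, and the 8 coloured genes on the right are all higher at D3, 5 of them as high or higher at D4.

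Other metabolic and cell cycle genes were mostly under 2-fold at this step. Glycolysis had 3 of 18 lower (SLC2A1 at 149 and 73.7 FPKM, SLC2A3 at 261 and 106, HK1 at 63.6 and 26.7) and a median of -0.24, with -1.23 at D4. Proliferation genes were lower in 1 of 28 (MCM5, 121 and 53.7), with a median of -0.28, and -1.36 at D4. In the unscaled columns the larger difference from D2 thus lay at D4 for both lists. How much of it the lower level of the whole D4 column makes up was not tested. A list of growth arrest genes and D-type cyclins had 10 members measured, of which 3 were higher, GADD45A (6.35 and 19.4), GADD45G (2.49 and 7.44) and BTG2 (4.56 and 10.3), all growth arrest genes. The 1 lower member was the cyclin CCND2 (91.5 and 42.9). No apoptosis gene of 9 was called, with TP53I3 set aside.

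Immediate early genes, which cells switch on within minutes of a growth factor or of handling, were higher in 4 of the 19 stress genes measured, and 3 were lower (IER3, TRIB3 and ANKRD1); the median was 0.24. EGR1 stood at 6.52 FPKM at D2, 28.7 at D3 and 79.1 at D4, FOS at 45, 119 and 191, JUNB at 5.18, 17.3 and 23.2, and FOSB at 3.42, 8.09 and 20.1. All 4 were higher still at D4. In hESC, however, FOS stood at 99.2, EGR1 at 17.3 and JUNB at 24.6, so that D1 and D2 were low points. The heat shock gene HSPA1A stood at 13.6 and 8.57. The EGR1 promoter is shown for its CArG boxes, the sites of serum response factor through which growth factors act on it; the 250 bases before the start lie at chr5:138465229-138465478, plus strand, GRCh38.p14, with both boxes in capitals.
EGR1: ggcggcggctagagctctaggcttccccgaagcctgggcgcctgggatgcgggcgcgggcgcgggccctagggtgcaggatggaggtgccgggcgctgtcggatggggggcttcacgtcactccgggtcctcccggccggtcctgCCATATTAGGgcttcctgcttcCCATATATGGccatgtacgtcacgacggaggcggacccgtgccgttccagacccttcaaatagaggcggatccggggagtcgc
A CArG box was in 3 of 150 promoters of the higher genes (2.00%; EGR1, FILIP1L and HIST2H2AC), in 5 of 306 of the lower genes (1.63%) and in 1.10% of those tested.

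The genes set aside were not all of 1 kind, and those named here were chosen after their values were seen. Of 486 protein-coding genes, 354 were low at D3 and 132 high, with D4 back near D2. In 25 protein-coding genes the columns D2, D4, D6, D10 and cardiomyocytes all stood at least 2-fold below the other 6 columns, and in 3 they all stood above them. Of these 28, 24 were set aside by the D4 rule (22 and 2), and none was among the higher or lower genes. Since D2 and D4 are both among the 5 columns, the rule removes such genes nearly by design. Whether weaker forms of the pattern lie among the higher and lower genes was not tested. PSMA1, a proteasome subunit, was listed at 0.884 FPKM at D2, 170 at D3, 0.290 at D4 and 72.9 at D5. JAG1, a NOTCH ligand, was listed at 0.599, 19.5, 0.187 and 39.8. TUBB3, a tubulin, had the opposite course, at 190, 0.0433, 162 and 0.115, yet the sorted D3 cells had 214 and 133. What set these 5 columns apart is not given in the labels. For others D3 was a dip: BOLA3 stood at 55.2, 4.74 and 23.7, and MRPL54, a protein of the mitochondrial ribosome, at 40.7, 3.73 and 23.2. In the sort table, made from other libraries, MRPL54 stood at 7.31 and 10.9, above its unsorted D3 value and below D2 and D4. Of the 354 genes low at D3, 129 were in the sort table. In 56 of these (43.4%) the D3 value lay below both sorted values. The share was 16.6% for the lower protein-coding genes in it and 13.5% for all tested protein-coding genes in it. The rule chose the 354 for a D3 value below D2 and D4, so an excess over all genes is partly built in. A dip at D3, short of the rule for setting aside, was also seen in some of the lower genes, such as MRPL48 (29.5, 6.44 and 12.4) and CCT7 (312, 74.5 and 138). Both were chosen after their values were seen. At D4, 223 of the 403 lower genes had moved back towards D2, and 22 of them lay beyond it. Of the 182 higher genes 88 had moved back, 15 of them beyond D2. The rule kept genes that lay far enough from D2 on the other side.

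Cells sorted at D3 were used as a readout that the time course did not choose. The authors compared ROR2-positive cells, labelled PMESO, with ROR2-negative cells, and their deposited table used here holds 4648 genes with a q-value below 0.05, so a gene that is not in it cannot be read as equal. Of all 11041 tested entries, 14.7% were called higher in ROR2-positive and 11.5% in ROR2-negative cells. Of the 182 protein-coding genes higher at D3, 96 (52.7%) were higher in ROR2-positive and 29 (15.9%) in ROR2-negative cells; of the 403 lower genes, 97 (24.1%) and 84 (20.8%) were. Over all protein-coding genes tested the shares were 15.6% and 11.6%. The sort was normalized apart from the time course, so levels are set side by side only as a description.

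MYL4, at chr17:45277812-45301045 in hg19, stood at 6.33 FPKM in ROR2-negative and 152 in ROR2-positive cells (q = 0.000375 in the authors' deposited table). HAPLN1 stood at 5.85 and 212, HTRA1 at 4.37 and 144, BMPER at 3.64 and 146, NRP1 at 2.45 and 56.8, and ISL1 at 0.667 and 9.66. In each of these the unsorted D3 value lay between the sorted ones. ACTA2 (3.88 and 15.4) and PRRX1 (0.434 and 1.26), in contrast, were lower in both sorted populations than in the unsorted D3 culture. Some genes higher at D3 belonged to the other side of the sort: ABCA1 (20.9 in ROR2-negative, 10.3 in ROR2-positive), RND1 (33.3 and 8.60), CALCRL (10.1 and 4.18) and TFAP2A (16.7 and 1.81). The genes higher at D3 thus included genes of both populations.

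Most streak and most pluripotency genes lay on opposite sides of the sort. Of the 15 streak factors measured, 10 were called higher in ROR2-positive and 2 in ROR2-negative cells (NKX1-2 at 8.30 and 1.46, and SP8 at 3.18 and 1.19). Of the former, MIXL1 stood at 1.75 FPKM in ROR2-negative and 33.9 in ROR2-positive cells, EOMES at 5.47 and 34.2, and MESP1 at 0.262 and 5.79; CER1, of the NODAL list, stood at 1.16 and 62.7. The lower pluripotency genes NANOG (15 and 2.19) and POU5F1 (449 and 87.3) were higher in ROR2-negative cells, and OTX2 (12.1 and 30.4) in ROR2-positive cells. For OTX2, as for FOXJ1 (2.98 and 6.48), the unsorted D3 value lay below both sorted values. SOX2, under 2-fold in the time course, stood at 58.4 and 6.73, and FST, of the NODAL list, at 62.7 and 11.9. Of the 16 pluripotency genes measured, 11 were called higher in ROR2-negative and 2 in ROR2-positive cells, while of the 15 cardiac mesoderm genes 14 were called higher in ROR2-positive and none in ROR2-negative cells, and of the 30 matrix genes 23 and none. T was low on both sides, at 2.27 and 3.68. CYP26A1, at chr10:94833232-94837647 in hg19, stood at 1.97 and 22.2, so that the unsorted D3 value of 1.23 lay below both sorted values and the ROR2-positive value lay near the 29.9 of D2. Of the 18 sterol genes 4 were called, all higher in ROR2-negative cells, and those named here were low on both sides: FDFT1 stood at 80.0 and 48.8 and MSMO1 at 28.5 and 17.9, both below or near the unsorted D3 level and far below D2.

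**Figure D5:**
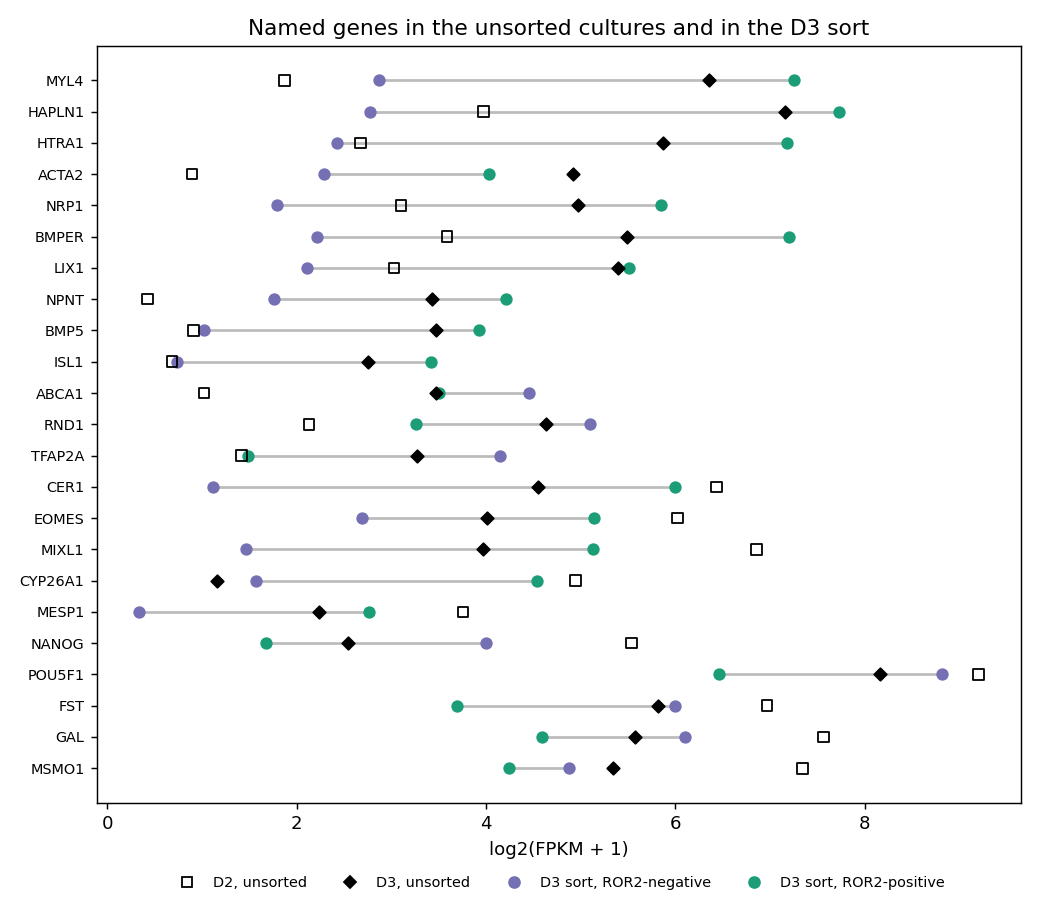
Levels in log2(FPKM + 1) of 23 named genes (rows) in unsorted D2 (open square) and D3 (diamond) cultures and in ROR2-negative (purple) and ROR2-positive (green) cells sorted at D3, each the authors' single value; the sort was normalized apart. Most D3 diamonds lie between the sorted populations, while ACTA2 lies above both, CYP26A1 and, narrowly, ABCA1 below both, and MSMO1 above both and far to the left of its D2 square.

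Among the 41 entries not matched to a protein-coding gene that were higher and the 124 that were lower at D3, the 5 largest increases were RNU5A-8P, SNORA42, SNORA76, MIR765 and SNORA2B, all listed at 0 at D2. The 5 largest decreases were RNA5SP180, RNA5SP304, SNORD13, RNU6-105P and RNU6-769P, all listed at 0 at D3. Listed values of 0 can be failed estimates, and no fold is given for them.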

How the data were processed

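Members and gene lists were chosen with earlier results of these data known. Per the submitters' processing notes, the authors used TopHat2 2.0.8b, Bowtie2 2.1.0.0, Cufflinks and the build hg19; gene annotation, strand setting and any scaling of the columns were not given in the sources used here. Per the labels, each library came from 500 ng of RNA after removal of ribosomal RNA, with 10 PCR cycles, and was read as pairs of 100 nt. The authors deposited a single FPKM value for each gene at each time point, so a planned test over libraries could not be run, and depth is unknown. The authors' sort table gives FPKM, the log2 of the fold change, p-values and q-values, per the file headers, and holds genes with a q-value below 0.05 in the form used here.

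From these, log2(FPKM + 1) differences, calls and list medians were computed with Python 3.11.15 and pandas 2.3.3, in a routine run on simulated data. It recovered 200 of 200 planted changes. These were free of noise, well above the minimum level and clear of the limits, so the accuracy of calls was not measured. Genes named are the 15 largest increases and decreases among protein-coding genes, the 5 largest among other entries, MYL4, ACTA2 and CYP26A1, and members of 28 lists; any other is said to be chosen after its values were seen. Some genes of these sets are not reported here. Gene types came from GENCODE 29 and RefSeq names (94.9% of tested entries matched), promoters from RefSeq (GRCh38.p14). The sort's start positions were turned to 1-based, since 1919 loci then have the length of a GENCODE gene. Other minimum values, pseudocounts, column scalings and rules for setting genes aside were tried.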

Additional observations from a re-analysis of the deposited data

How the results depend on the processing

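No paired analysis was possible because the table gives 1 value per gene and time point for both libraries together, and for the same reason leaving out a library could not be run. The 223 higher genes became 365 with a minimum of 1 FPKM, 365 with no minimum, 431 with no gene set aside, 119 when D4 had to be as far from D2 as D3, and 943 with D4 in place of D3. The 527 lower genes became 916 with no gene set aside, 283 when D4 had to be as far, and 1597 with D4 in place of D3. A pseudocount of 0.1 gave 299 and 587, and scaled columns 297 and 378. When genes beyond D2 on the other side at D4 were set aside too, the counts were 206 and 504. With a minimum of 1 FPKM the medians were -0.37 for WNT ligands, -0.18 for the NODAL pathway, -0.17 for WNT antagonists, 0.26 for cardiac mesoderm, -0.34 for endoderm, -0.01 for epithelium and its loss and -0.18 for endothelial and blood genes, and those of smooth muscle (0.06) and guidance (0.01) changed sign. With D4 in place of D3 the medians were -1.30 for the NODAL pathway, -1.09 for WNT targets, -2.21 for WNT antagonists, -2.03 for pluripotency, -1.36 for proliferation and -1.23 for glycolysis. The settings that use D4 as a condition or in place of D3 were chosen after the data were seen and used unscaled columns. No named gene changed direction while past 2-fold, but some calls near that limit changed. Under the scaled columns, 9 of the genes followed across settings fell under 2-fold. FOXA2, POU5F1, MYC, CCND2 and SLC2A1, counted as lower above, were among them. The same scaling took 5 genes past 2-fold, LEF1 and FN1 among them, and a pseudocount of 0.1 took 10 past it. With the q-value limit at 0.01, the higher genes held 97 ROR2-positive and 27 ROR2-negative calls and the lower genes 81 and 88, against 102 and 32, and 102 and 108.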
